A study of Homo sapiens with 12 samples.

Results

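The 39 protein-coding integrin and laminin genes of the deposited tables are described here, out of 58302 genes in all. They were taken by symbol, as every protein-coding gene whose name begins with ITGA or ITGB and does not contain BP, or with LAMA, LAMB or LAMC and a digit. This gave 27 integrin-family genes, ITGBL1 among them, and 12 laminin chain genes. Messenger RNA was sequenced from H1703 (NCI-H1703) and H1299 (NCI-H1299), cell lines from human non-small-cell lung cancers, labelled as epithelial. The 4 groups of 3 libraries each were H1703 with SAHA, H1703 with DMSO, H1299 with SAHA and H1299 with DMSO. SAHA (vorinostat) inhibits zinc-dependent histone deacetylases, and DMSO is its vehicle. The protocol gives 24 h of treatment, 0.1% DMSO, and SAHA at 2.5, 10 or 40 µM without tying a dose to the sequenced libraries. Each line is a single cancer cell line. The labels do not say whether the 3 libraries of a group are separate cultures, and the p-values may therefore rest on technical spread alone.

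Laminins are large secreted glycoproteins of the basement membrane. Each is a trimer of an alpha, a beta and a gamma chain, and the trimer is named by its chains: laminin-511 joins LAMA5, LAMB1 and LAMC1, and laminin-332 contains LAMA3 and LAMB3. Integrins are the cell surface receptors for laminins and for other matrix proteins. Each is a dimer of an alpha and a beta subunit, the pairing sets the ligand, and the cytoplasmic tail of the beta subunit binds talin and kindlin, which couple the receptor to actin. In lung epithelium the laminin-binding dimers alpha 3 beta 1 and alpha 6 beta 4 hold epithelial cells to their basement membrane, and the leukocyte integrins around beta 2 are normally restricted to blood cells.

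Total counts per library ran from about 14416000 to about 19409000. Mitochondrially encoded genes took 8.77 to 10.9% of counts in H1703 with SAHA and 5.44 to 6.27% with DMSO. They took 4.10 ± 0.121% in H1299 with SAHA and 2.12 ± 0.138% with DMSO (mean ± SD, n = 3). Their part in the results below was not tested. The epithelial label was checked on 8 markers. In H1703, 7 of the 8 averaged 1 CPM (a count scaled to library size) or more with SAHA and with DMSO. In H1299 only 4 of 8 did in either group. E-cadherin, CDH1, had 0 counts in all H1299 DMSO libraries, while the keratin KRT18 averaged 383 ± 8.99 CPM there (SD, n = 3). The pan-leukocyte marker PTPRC had 2 or 3 counts in total in each of the 4 groups, and MS4A1 had none in any group. CD3D, CD3E and NKG7 also had none with DMSO. The summed level of the 10 leukocyte markers was 84.7 to 94.1 CPM in H1703 with SAHA and 27.9 to 47.6 CPM with DMSO. It was 23.1 to 27.2 CPM in H1299 with SAHA and 21.3 to 42.1 CPM with DMSO. In H1703 most of the sum came from CD68 and CD14. Of the 4 leukocyte markers tested there, 3 rose with SAHA, against 34.7% of all tested genes. Of these, CSF1R, the macrophage growth factor receptor, had 10.2, 9.17 and 9.39 CPM with SAHA, against 0.319, 0.408 and 0.275 CPM with DMSO in H1703 (log2 4.82 ± 0.22, edgeR adjusted p = 1.2e-07). CD68, a lysosomal protein of macrophages, had 40.4, 50.7 and 39.1 CPM with SAHA, against 18.7, 13.5 and 14.6 CPM with DMSO there (edgeR adjusted p = 1.7e-05), and LYZ also rose (log2 4.87 ± 0.74). In H1299 2 were tested. CSF1R rose, with 5.67, 7.29 and 7.02 CPM with SAHA, against 0.181, 0.236 and 0 CPM with DMSO (log2 5.48 ± 0.45, edgeR adjusted p = 7.9e-06), and CD68 fell (log2 -0.88 ± 0.24). In both lines CSF1R was so low with DMSO that it entered the test through its SAHA libraries, so its call lends no support. With DMSO, 2 of the 10 leukocyte markers averaged 1 CPM or more in H1703 and 1 in H1299. For a marker far below that level a rise was nearly the only call open, so the counts of risers lend no support. In such bulk libraries, fewer cells that express a gene and less RNA per cell cannot be told apart.

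Of the 39 genes, 37 had enough counts to be tested in H1703 and 32 in H1299. A gene was called at an adjusted p below 0.05 in edgeR's quasi-likelihood test, adjusted over all genes of the comparison. Over all tested genes, 67.4% were called in H1703 and 63.8% in H1299. In H1703, 21 of 37 members rose with SAHA and 7 fell, against 34.7% of all tested genes called higher and 32.6% called lower. In H1299, 14 of 32 rose and 10 fell, against a background of 33.3% higher and 30.4% lower. As shares of the tested members these are 56.8% higher and 18.9% lower in H1703, and 43.8% higher and 31.3% lower in H1299. The lower share in H1299 lies near the background. The median log2 fold change of the tested members was 0.61 in H1703 and 0.29 in H1299, beside 0.02 over all tested genes in each line. Of the tested members, ITGA9 and LAMA1 in H1703 and ITGA9, ITGAX and ITGB2 in H1299 had fewer than 10 counts in every DMSO library. They entered the test through their SAHA libraries, so their calls, all higher, lend no support. The higher shares and the medians above include them.

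Both lines raised 9 members: the laminin chains LAMB2, LAMB3 and LAMC1, and the integrin subunits ITGA2, ITGA5, ITGA7, ITGA9, ITGAX and ITGB1. Both lines lowered 3, ITGAE, ITGB4 and LAMB1. ITGA4, ITGA6 and LAMC3 rose in H1703 and fell in H1299, and ITGB2, ITGB3 and LAMA3 fell in H1703 and rose in H1299. Of the 32 members tested in both lines, 28.1% were higher with SAHA in both and 9.38% lower in both, against 23% and 21.9% of the 15654 genes tested in both. Higher in H1703 and lower in H1299 were 12.5% of the members, against 2.1% of all genes, and lower in H1703 and higher in H1299 were 9.38%, against 2.89%. These shares rest on few genes. ITGA9 in both lines and ITGAX and ITGB2 in H1299 entered the test through their SAHA libraries, so these rises lend no support. The share higher in both lines includes ITGA9 and ITGAX, and lies near that of all genes. The calls of LAMA3 and LAMC3 in H1703 and of ITGB2 in H1299 were lost in several alternatives, given at each gene below. The difference of the SAHA effect, tested as an interaction in 1 fit over all 12 libraries, was called for each of the 6 named above with opposite directions, with values given at each gene below as H1703 minus H1299.

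**Figure D1:**
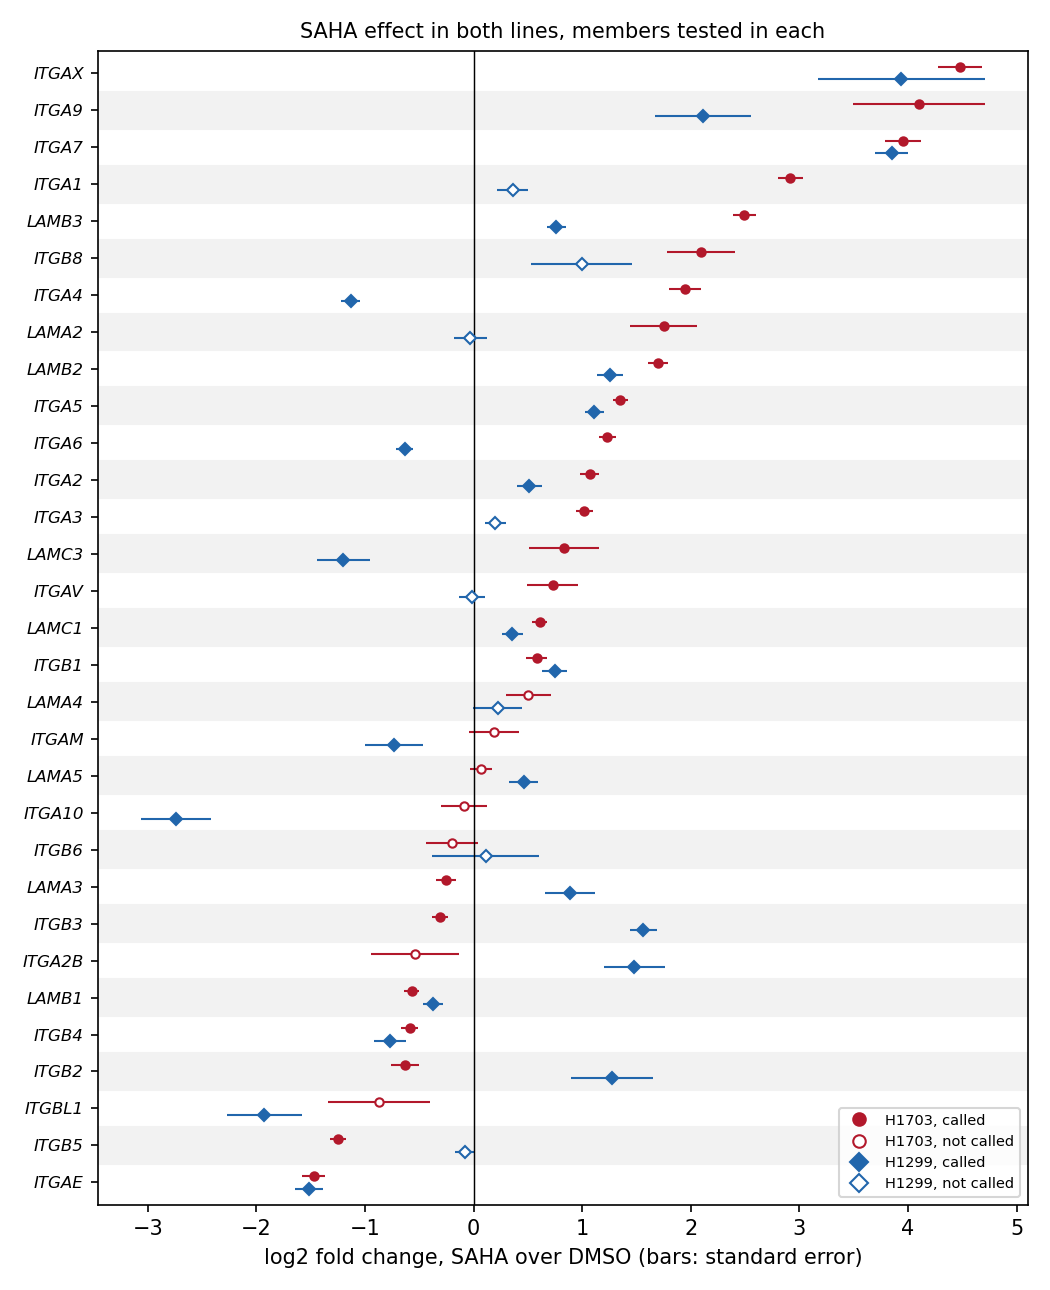
Log2 fold change of SAHA over DMSO (horizontal axis) with its standard error for the members tested in both lines that are described here, ordered by the value in H1703. Circles are H1703 and diamonds H1299, 3 libraries per group, filled where called; ITGA7 lies near 4 in both lines, while ITGA4 and ITGA6 lie right of 0 in H1703 and left of 0 in H1299.

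Promoter windows are shown for 5 members that were called in the same direction in both lines, since these are the shared part of the response. They are the 3 such risers with the largest smaller-of-the-2-lines fold among those with a RefSeq promoter entry, and the fallers with an entry. RefSeq promoter entries (GRCh38.p14, 250 bases before to 50 after an annotated start, written 5′ to 3′ along the gene) matched 27 of the 39 members by symbol. Where a gene had several windows, the one whose start lay nearest to the gene's start in the authors' tables was taken. Capitals mark a GC box (GGGCGG, or CCGCCC on the other strand), the site of SP-family factors, or the AP-1 site TGANTCA, which reads the same on both strands.
LAMB3, chr1:209652376-209652675, minus strand: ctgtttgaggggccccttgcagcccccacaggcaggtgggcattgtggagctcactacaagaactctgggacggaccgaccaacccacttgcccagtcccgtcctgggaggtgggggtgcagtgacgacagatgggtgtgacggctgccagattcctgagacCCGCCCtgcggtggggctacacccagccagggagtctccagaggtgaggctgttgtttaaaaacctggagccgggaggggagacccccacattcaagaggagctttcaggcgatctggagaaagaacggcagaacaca
LAMB2, chr3:49133001-49133300, minus strand: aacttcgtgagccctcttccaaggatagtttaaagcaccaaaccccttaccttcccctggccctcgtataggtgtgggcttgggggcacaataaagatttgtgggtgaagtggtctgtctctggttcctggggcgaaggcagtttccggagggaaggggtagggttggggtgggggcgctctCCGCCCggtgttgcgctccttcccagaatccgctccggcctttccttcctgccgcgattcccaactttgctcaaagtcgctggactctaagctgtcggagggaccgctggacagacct
ITGA5, chr12:54419217-54419516, minus strand: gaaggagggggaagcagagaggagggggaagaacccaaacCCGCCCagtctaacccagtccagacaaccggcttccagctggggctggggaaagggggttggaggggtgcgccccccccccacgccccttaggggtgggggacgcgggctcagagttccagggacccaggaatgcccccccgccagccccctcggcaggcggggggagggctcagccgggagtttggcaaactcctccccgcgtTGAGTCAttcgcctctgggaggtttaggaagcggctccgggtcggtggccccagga
LAMB1, chr7:108003112-108003411, minus strand: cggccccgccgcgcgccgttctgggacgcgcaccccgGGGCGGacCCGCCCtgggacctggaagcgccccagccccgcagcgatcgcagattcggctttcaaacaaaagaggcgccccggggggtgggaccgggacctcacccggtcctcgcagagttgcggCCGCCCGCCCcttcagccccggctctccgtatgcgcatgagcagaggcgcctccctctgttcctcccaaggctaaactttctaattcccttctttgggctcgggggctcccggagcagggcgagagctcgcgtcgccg
ITGAE, chr17:3801139-3801438, minus strand: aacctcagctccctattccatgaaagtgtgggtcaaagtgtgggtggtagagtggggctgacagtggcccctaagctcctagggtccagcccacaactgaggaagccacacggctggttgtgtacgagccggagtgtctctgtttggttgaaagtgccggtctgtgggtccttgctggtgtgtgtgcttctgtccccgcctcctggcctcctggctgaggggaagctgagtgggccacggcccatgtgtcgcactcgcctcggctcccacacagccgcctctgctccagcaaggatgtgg
LAMB3, LAMB2 and ITGA5 each hold 1 GC box, LAMB1 holds 4, and ITGAE holds none. ITGA5 alone among these 5 holds the AP-1 letters, TGAGTCA, close to its start. Over all 34796 RefSeq windows of this length, 44.9% hold a GC box and 7.73% hold TGANTCA. Among the 27 members with a window, 15 hold a GC box and 2, ITGA5 and LAMA3, hold TGANTCA. Those of ITGB1, ITGB6 and LAMA3 lie 47562, 71616 and 183577 bases from the gene's start in the authors' tables, at another annotated start. The windows of LAMB3, LAMB2 and ITGA5, which rose, hold 10, 15 and 16 CG dinucleotides, and those of LAMB1 and ITGAE, which fell, hold 35 and 10, against a median of 14 over all windows. The highest number of GC boxes and of CG dinucleotides among the 5 is thus in LAMB1, which fell. A match is a run of letters in the window and not a measured binding site.

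The laminin alpha chains, which carry the globular domains that integrins bind, gave the largest single change among the members. LAMA1 (ENSG00000101680, GRCh38 chromosome 18, 6941744 to 7117814), the alpha chain of the early embryonic basement membrane, had 594, 609 and 588 counts with SAHA, against 1, 0 and 0 counts with DMSO in H1703. All 3 SAHA libraries were far above the DMSO libraries, which held 1 count between them, so the ratio of the summed levels was 1787, with a counting interval from 320 to 70628 (95%, exact, counting error only). In H1299 LAMA1 had 9, 13 and 13 counts with SAHA, against 3, 1 and 0 counts with DMSO, too few for the test, and the groups did not overlap. The interaction was called (log2 7.31 ± 1.27, edgeR adjusted p = 5.0e-04). Without H1299 DMSO replicate 1 that call was lost at 6.08 (edgeR adjusted p = 0.051). Its adjusted p over all alternatives ran from 9.0e-07 to 0.051.

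LAMA3, the alpha chain of laminin-332, had 132, 119 and 104 CPM with SAHA, against 143, 142 and 143 CPM with DMSO in H1703, a small fall (log2 -0.25 ± 0.092, edgeR adjusted p = 0.035). That call was lost in several alternatives, namely DESeq2, the fit over 12 libraries, and without any 1 of the 3 DMSO libraries or of SAHA replicates 2 and 3 (adjusted p range over alternatives 0.0087 to 0.16). In H1299 it rose, with 9.42, 14.96 and 9.35 CPM with SAHA, against 5.86, 4.72 and 6.95 CPM with DMSO (log2 0.89 ± 0.23, edgeR adjusted p = 0.0074). The interaction was called (log2 -1.21 ± 0.24, edgeR adjusted p = 0.0018). LAMA5, the alpha chain of laminin-511 and the main alpha chain of adult epithelium, had 991, 883 and 749 CPM with SAHA, against 812, 839.6 and 882 CPM with DMSO in H1703 (log2 0.068 ± 0.10, edgeR adjusted p = 0.57, groups overlapping). In H1299 LAMA5 had 156, 228 and 175 CPM with SAHA, against 139, 129.8 and 123 CPM with DMSO, a rise of 1.38-fold (log2 0.46 ± 0.14, edgeR adjusted p = 0.016). That rise was lost without H1299 DMSO replicate 3 (edgeR adjusted p = 0.055). Across the alternatives the adjusted p was 0.0034 to 0.055.

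LAMA2, the muscle and nerve laminin chain whose loss causes a congenital muscular dystrophy, rose in H1703, with 3.99, 2.84 and 4.201 CPM with SAHA, against 1.59, 0.816 and 0.893 CPM with DMSO (log2 1.75 ± 0.31, edgeR adjusted p = 7.1e-04). In H1299 the groups overlapped, with 24.5, 25.7 and 18.5 CPM with SAHA, against 25.5, 20.02 and 22.1 CPM with DMSO (log2 -0.032 ± 0.15, edgeR adjusted p = 0.86). The interaction was called (log2 1.71 ± 0.32, edgeR adjusted p = 0.001). LAMA4, found mostly in vessel walls, had 3.99, 3.48 and 4.99 CPM with SAHA, against 3.06, 2.797 and 3.02 CPM with DMSO in H1703 (log2 0.50 ± 0.20, edgeR adjusted p = 0.051), with no overlap between groups. It had 2.33, 2.41 and 1.93 CPM with SAHA, against 1.81, 1.65 and 2.03 CPM with DMSO in H1299 (log2 0.22 ± 0.23, edgeR adjusted p = 0.42) and passed in neither line. LAMA4 in H1703 passed with RLE scaling (edgeR adjusted p = 0.045) and in the fit over 12 libraries (0.047), and also without SAHA replicate 2. Over all alternatives the adjusted p ranged from 0.033 to 0.17. The summed level of 6 endothelial markers was 7.72 to 9.98 CPM in H1703 with SAHA and 0.962 to 1.57 CPM with DMSO, and all 3 tested rose. It was 16.4 to 21.6 CPM in H1299 with SAHA and 1.65 to 1.98 CPM with DMSO, and both tested rose. Of all tested genes, 34.7% rose in H1703 and 33.3% in H1299. With DMSO, 0 of the 6 averaged 1 CPM or more in either line. A rise was thus nearly the only call open to them, and these counts lend no support. KDR, a VEGF receptor, made up most of the sum with SAHA, at 4.84 ± 0.756 CPM in H1703 and 12.4 ± 2.58 CPM in H1299. CDH5 and TEK had 0 counts in H1299 with DMSO, and CLDN5 had 0 in H1703 with SAHA. Their part in the LAMA4 values was not tested.

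The beta chains moved in opposite directions within each line: LAMB2 and LAMB3 rose and LAMB1 fell. LAMB3 (ENSG00000196878, GRCh38 chromosome 1, 209614870 to 209652466), the beta chain found in laminin-332 and mutated in junctional epidermolysis bullosa, had 204, 194 and 173 CPM with SAHA, against 33.4, 31.2 and 38.3 CPM with DMSO in H1703. It had 256, 305 and 278 CPM with SAHA, against 156, 167 and 154 CPM with DMSO in H1299, where even the DMSO level exceeded that of H1703 with DMSO. Groups did not overlap in either line, and the rise was 5.62-fold in H1703 (log2 2.49 ± 0.10, edgeR adjusted p = 7.0e-08) and 1.696-fold in H1299 (log2 0.76 ± 0.088, edgeR adjusted p = 6.4e-05), larger in H1703 by the interaction (log2 1.66 ± 0.14, edgeR adjusted p = 5.9e-07). LAMB2, the beta chain of the glomerular and synaptic laminins, had 238, 206 and 195 CPM with SAHA, against 68.04, 61.7 and 69.8 CPM with DMSO in H1703 (log2 1.70 ± 0.10, edgeR adjusted p = 3.8e-07). In H1299 LAMB2 had 76.4, 101 and 82.3 CPM with SAHA, against 36.8, 31.9 and 35.7 CPM with DMSO (log2 1.26 ± 0.12, edgeR adjusted p = 2.2e-05). Its rise was 3.24-fold and 2.39-fold, every SAHA library lying above every DMSO library of its line, and the difference between lines did not pass (log2 0.37 ± 0.16, edgeR adjusted p = 0.085), but did with RLE scaling (edgeR adjusted p = 0.047) with DESeq2 (0.046), and without H1299 SAHA replicate 2. Its adjusted p over all alternatives ran from 0.017 to 0.22. LAMB1 (ENSG00000091136, GRCh38 chromosome 7, 107923799 to 108003255), the broadly expressed beta chain of laminin-111, laminin-411 and laminin-511, had 362, 336 and 333 CPM with SAHA, against 506, 508 and 532 CPM with DMSO in H1703 (log2 -0.57 ± 0.069, edgeR adjusted p = 6.0e-05). In H1299 LAMB1 had 97.5, 116 and 97.1 CPM with SAHA, against 131, 123 and 133 CPM with DMSO (log2 -0.37 ± 0.095, edgeR adjusted p = 0.0068). It fell without overlap in both lines. LAMB4, a chain with few known trimers, had 0, 1 and 1 counts with SAHA, against 4, 9 and 10 counts with DMSO in H1703 and at most 3 counts in any H1299 library, and was not tested.

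LAMC1, the gamma chain of most laminins, rose in both lines. It had 834, 763 and 849 CPM with SAHA, against 536, 532 and 557 CPM with DMSO in H1703 (log2 0.61 ± 0.071, edgeR adjusted p = 4.6e-05). In H1299 LAMC1 had 262, 305 and 246 CPM with SAHA, against 212, 201 and 199 CPM with DMSO (log2 0.36 ± 0.095, edgeR adjusted p = 0.0087), with no overlap. LAMC3, a low-level gamma chain, split the lines, with 3.26, 3.31 and 2.69 CPM with SAHA, against 2.04, 0.932 and 2.34 CPM with DMSO in H1703 (log2 0.83 ± 0.32, edgeR adjusted p = 0.042). In H1299 LAMC3 had 1.85, 3.42 and 2.22 CPM with SAHA, against 5.92, 4.96 and 5.71 CPM with DMSO (log2 -1.20 ± 0.24, edgeR adjusted p = 0.002). The interaction was log2 1.96 ± 0.42, edgeR adjusted p = 0.0025. Its rise in H1703 was lost in several alternatives, namely DESeq2, total counts as the scaling, and without any 1 of the libraries other than DMSO replicate 3. Without DMSO replicate 2 it was 0.50 (edgeR adjusted p = 0.12). Across the alternatives the adjusted p was 0.027 to 0.12.

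Levels per length, as the authors' deposited FPKM, allow the chains of one trimer to be set side by side (mean ± SD, n = 3). Of the laminin-332 chains in H1703, LAMA3 and LAMB3 stood at 6.28 ± 0.793 and 27.3 ± 2.54 FPKM with SAHA, and at 8.03 ± 0.0829 and 5.22 ± 0.606 FPKM with DMSO. The lower of the pair was thus LAMA3 with SAHA and LAMB3 with DMSO. In H1299 they stood at 0.732 ± 0.2098 and 49.2 ± 3.96 FPKM with SAHA, and at 0.377 ± 0.0765 and 27.7 ± 0.8496 FPKM with DMSO, LAMA3 being far below LAMB3 in both groups. For laminin-511 in H1703, LAMA5, LAMB1 and LAMC1 stood at 43.7 ± 6.42, 24.97 ± 1.38 and 75.6 ± 4.46 FPKM with SAHA, and at 44.8 ± 2.21, 39.8 ± 1.42 and 53.3 ± 1.79 FPKM with DMSO. In H1299 they stood at 11.4 ± 2.23, 9.25 ± 0.987 and 30.9 ± 3.69 FPKM with SAHA, and at 7.91 ± 0.479, 11.4 ± 0.636 and 22.99 ± 0.884 FPKM with DMSO. LAMC1 was the highest of its trimer in all 4 groups. LAMB1 was the lowest with SAHA in both lines and with DMSO in H1703, and LAMA5 was the lowest with DMSO in H1299. Each gene has 1 length in these values, although LAMA3 is made as a short and a long transcript.

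**Figure D2:**
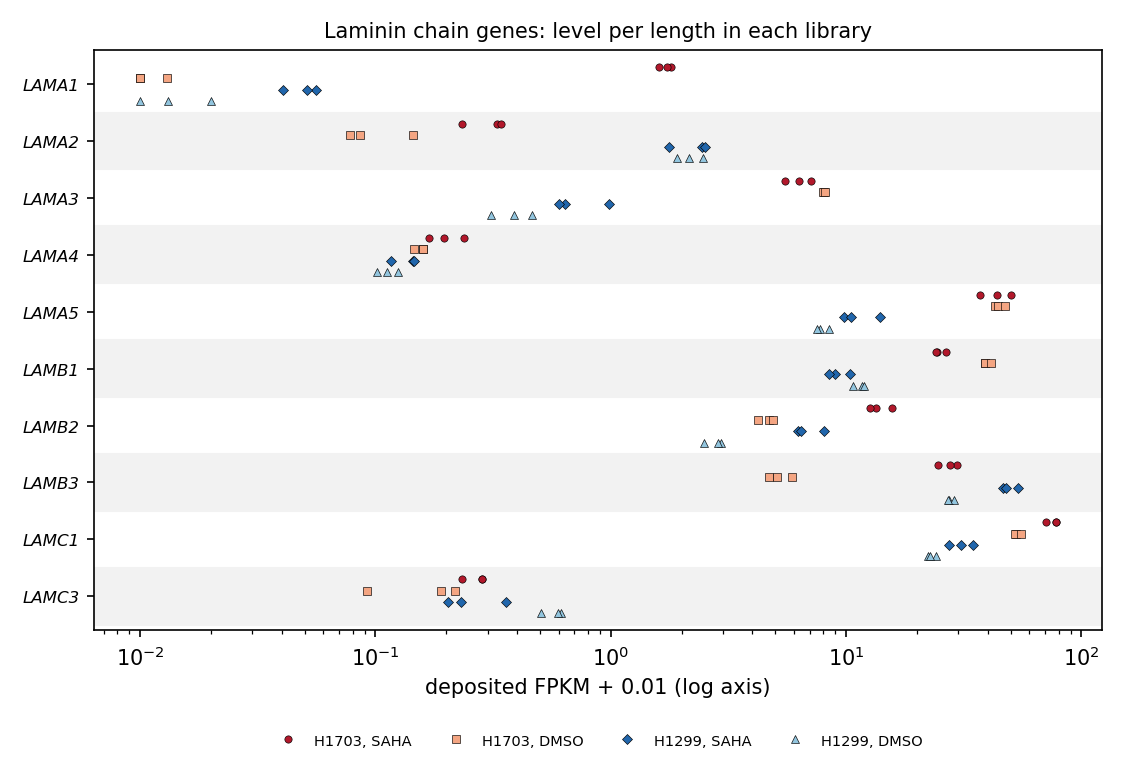
Deposited FPKM plus 0.01 on a log axis (horizontal) in each library for the 10 laminin genes shown, each with a highest group mean of 1 CPM or more. Each point is 1 library, 3 per group; in H1703, LAMA1 with SAHA stands alone near 1.71 FPKM and LAMB3 with SAHA near 27.3 FPKM.

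Among the laminin receptors, alpha 3, alpha 6, alpha 7 and beta 4 pair to bind laminin. ITGA3 (ENSG00000005884, GRCh38 chromosome 17, 50055968 to 50090481), the partner of beta 1 in the receptor for laminin-332 and laminin-511, had 1224, 1107 and 1051 CPM with SAHA, against 581, 533 and 578 CPM with DMSO in H1703, a rise of 2.03-fold (log2 1.02 ± 0.079, edgeR adjusted p = 3.0e-06). In H1299 ITGA3 had 785, 930.1 and 862 CPM with SAHA, against 768, 724 and 668 CPM with DMSO, and this did not pass (log2 0.20 ± 0.094, edgeR adjusted p = 0.087) although the groups did not overlap. It passed there with total counts as the scaling (edgeR adjusted p = 0.02) and in the fit over 12 libraries (0.021), and also without SAHA replicate 1. Over all alternatives the adjusted p ranged from 0.02 to 0.34, and the rise was larger in H1703 (interaction log2 0.74 ± 0.12, edgeR adjusted p = 3.5e-04). ITGA6 (ENSG00000091409, GRCh38 chromosome 2, 172427354 to 172506282), which pairs with beta 1 or beta 4 and marks many epithelial stem cells, had 124, 116 and 117 CPM with SAHA, against 53.5, 49.3 and 51.5 CPM with DMSO in H1703 (log2 1.23 ± 0.076, edgeR adjusted p = 6.4e-07). In H1299 ITGA6 had 226, 214 and 206 CPM with SAHA, against 311, 331 and 325 CPM with DMSO (log2 -0.64 ± 0.076, edgeR adjusted p = 8.1e-05). It rose in H1703 and fell in H1299, with no overlap in either line (interaction log2 1.80 ± 0.10, edgeR adjusted p = 1.5e-08).

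ITGA7 (ENSG00000135424, GRCh38 chromosome 12, 55684568 to 55716043), the laminin receptor subunit of skeletal and heart muscle, had 53.5, 53.9 and 48.2 CPM with SAHA, against 3.51, 4.08 and 2.47 CPM with DMSO in H1703 and 27.6, 29.5 and 25.9 CPM with SAHA, against 2.11, 1.83 and 1.58 CPM with DMSO in H1299. Groups did not overlap. The rise was 15.5-fold in H1703 (log2 3.96 ± 0.17, edgeR adjusted p = 7.1e-08) and 14.4-fold in H1299 (log2 3.85 ± 0.15, edgeR adjusted p = 1.7e-07), and the difference between lines did not pass (log2 0.035 ± 0.25, edgeR adjusted p = 0.96). The authors' positions for ITGA7 overlap BLOC1S1, whose level fell in both lines (log2 -0.71 ± 0.17 in H1703 and -0.28 ± 0.095 in H1299). Of 5 muscle markers, DES, MYOD1 and MYOG had 0 counts in all DMSO libraries, and MYOG also with SAHA. DES, the muscle filament desmin, had 86, 115 and 96 counts in H1703 and 232, 188 and 284 in H1299 with SAHA. The summed level of the 5 was 20.6 to 23.8 CPM in H1703 with SAHA and 13.6 to 16.005 CPM with DMSO. In H1299 the sum was 22.5 to 27.1 CPM with SAHA and 7.12 to 9.12 CPM with DMSO. Their part in the ITGA7 result was not tested. ITGB4 (ENSG00000132470, GRCh38 chromosome 17, 75721328 to 75757818), the partner of alpha 6 in hemidesmosomes with an unusually long cytoplasmic tail, fell in both lines. It had 89.7, 83.1 and 79.6 CPM with SAHA, against 124, 125 and 136 CPM with DMSO in H1703 (log2 -0.59 ± 0.081, edgeR adjusted p = 1.3e-04). In H1299 ITGB4 had 21.1, 29.2 and 20.3 CPM with SAHA, against 41.4, 38.9 and 35.9 CPM with DMSO (log2 -0.77 ± 0.15, edgeR adjusted p = 0.0015), and no library of one group reached the other.

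Of the 4 collagen receptor alphas, 3 rose in H1703, or 75% of only 4 genes, against 34.7% of all tested genes. ITGA1 (ENSG00000213949, GRCh38 chromosome 5, 52787896 to 52959210), the alpha subunit that binds type IV collagen, had 50.95, 45.6 and 47.2 CPM with SAHA, against 6.82, 6.76 and 5.63 CPM with DMSO in H1703, 7.56-fold higher (log2 2.92 ± 0.12, edgeR adjusted p = 5.6e-08). In H1299 ITGA1 had 18.1, 16.5 and 16.3 CPM with SAHA, against 15.4, 11.2 and 11.6 CPM with DMSO (log2 0.36 ± 0.15, edgeR adjusted p = 0.055); it passed there when the replicate number was blocked (edgeR adjusted p = 0.044) and in the fit over 12 libraries (0.014), with RLE scaling, with total counts, and without DMSO replicate 1. Its adjusted p over all alternatives ran from 0.014 to 0.202. The rise was larger in H1703 (interaction log2 2.49 ± 0.19, edgeR adjusted p = 2.8e-07). PELO overlaps ITGA1 in the authors' positions and rose too (log2 0.42 ± 0.080 in H1703 and 0.66 ± 0.079 in H1299). ITGA2, the subunit for fibrillar collagen on epithelium and platelets, had 180.2, 175 and 213 CPM with SAHA, against 92.1, 90.9 and 91.3 CPM with DMSO in H1703 (log2 1.07 ± 0.090, edgeR adjusted p = 5.3e-06). In H1299 ITGA2 had 109.8, 91.4 and 83.6 CPM with SAHA, against 64.4, 58.7 and 68.95 CPM with DMSO (log2 0.51 ± 0.12, edgeR adjusted p = 0.0038), without overlap. The interaction of ITGA2 (log2 0.48 ± 0.15, edgeR adjusted p = 0.024) was lost with total counts as the scaling (edgeR adjusted p = 0.09) and without H1299 DMSO replicate 3, H1299 SAHA replicate 2 or 3, or H1703 SAHA replicate 3. Across the alternatives the adjusted p was 0.0043 to 0.09. ITGA11, a fibroblast collagen receptor, rose in H1703, with 14.97, 13.8 and 15.4 CPM with SAHA, against 5.87, 6.12 and 5.22 CPM with DMSO (log2 1.37 ± 0.13, edgeR adjusted p = 1.4e-05), and had 4, 3 and 13 counts with SAHA, against 0, 1 and 0 counts with DMSO in H1299, too few for the test. ITGA10, a cartilage collagen receptor, fell in H1299, with 1.13, 0.507 and 1.29 CPM with SAHA, against 7.61, 4.66 and 6.84 CPM with DMSO (log2 -2.74 ± 0.33, edgeR adjusted p = 7.6e-05). In H1703 it had 4.32, 3.77 and 5.38 CPM with SAHA, against 3.89, 5.77 and 4.81 CPM with DMSO (log2 -0.089 ± 0.21, edgeR adjusted p = 0.73, groups overlapping; interaction log2 2.58 ± 0.41, edgeR adjusted p = 2.5e-04).

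Among the alpha subunits that read the RGD tripeptide of fibronectin and vitronectin, ITGA5 (ENSG00000161638, GRCh38 chromosome 12, 54395261 to 54419460), the fibronectin receptor subunit, rose in both lines. It had 417, 402 and 374 CPM with SAHA, against 159, 158 and 157 CPM with DMSO in H1703, 2.55-fold higher (log2 1.35 ± 0.071, edgeR adjusted p = 2.6e-07), and 224, 266 and 241 CPM with SAHA, against 111, 111 and 104 CPM with DMSO in H1299, 2.16-fold higher (log2 1.11 ± 0.087, edgeR adjusted p = 6.4e-06). The groups were far apart in each line and the difference between lines did not pass (log2 0.17 ± 0.11, edgeR adjusted p = 0.27). ITGAV, which pairs with several betas to bind vitronectin and latent TGF-beta, had 488, 270.0 and 489 CPM with SAHA, against 257, 246 and 260.4 CPM with DMSO in H1703 (log2 0.73 ± 0.24, edgeR adjusted p = 0.037). SAHA replicate 2 stood close to the DMSO libraries and below the other 2. Without replicate 2 the value was 0.96 (edgeR adjusted p = 8.7e-06). Without any one of the other 5 the call was lost, as it was with total counts as the scaling and with no filter on low counts (adjusted p range over alternatives 8.7e-06 to 0.13). In H1299 ITGAV had 150.4, 119 and 114 CPM with SAHA, against 134, 114 and 125 CPM with DMSO and the groups overlapped (log2 -0.016 ± 0.12, edgeR adjusted p = 0.91). The interaction did not pass (log2 0.67 ± 0.27, edgeR adjusted p = 0.082), but did with DESeq2 (adjusted p = 0.025) and without H1703 SAHA replicate 2 (4.8e-04; range over all alternatives 4.8e-04 to 0.21). ITGA2B, the platelet fibrinogen receptor subunit, rose in H1299 at a low level, with 1.97, 2.47 and 2.22 CPM with SAHA, against 0.785, 0.5905 and 0.904 CPM with DMSO (log2 1.48 ± 0.28, edgeR adjusted p = 0.0013), and overlapped in H1703, with 2.06, 1.39 and 0.656 CPM with SAHA, against 2.42, 1.399 and 2.27 CPM with DMSO (log2 -0.54 ± 0.40, edgeR adjusted p = 0.26). The interaction was log2 -2.09 ± 0.52, edgeR adjusted p = 0.0063. Of the 5 platelet markers, PF4, PPBP and GP9 had 0 counts in H1299 in both groups, and the sum was 0.761 to 1.73 CPM with SAHA and 1.03 to 1.71 CPM with DMSO. ITGA8 had 0 counts in every DMSO library of both lines, and 6, 2 and 2 counts in H1703 and 3, 5 and 5 in H1299 with SAHA, and was not tested.

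Alpha 4 and alpha 9 bind VCAM1 and related ligands. ITGA4 (ENSG00000115232, GRCh38 chromosome 2, 181457202 to 181536187), best known from lymphocytes, had 22.2, 20.3 and 21.2 CPM with SAHA, against 5.48, 4.72 and 6.53 CPM with DMSO in H1703, 3.85-fold higher (log2 1.95 ± 0.15, edgeR adjusted p = 2.5e-06). In H1299 it fell to 31.4, 28.9 and 29.8 CPM with SAHA, against 64.1, 60.6 and 65.9 CPM with DMSO, 2.19-fold lower (log2 -1.13 ± 0.089, edgeR adjusted p = 6.4e-06). The SAHA levels of the lines were thus closer than their DMSO levels, and the interaction was called (log2 3.01 ± 0.16, edgeR adjusted p = 1.0e-08). ITGA9 was near its detection limit under DMSO, with 20, 24 and 30 counts with SAHA, against 0, 1 and 3 counts with DMSO in H1703 (log2 4.10 ± 0.61, edgeR adjusted p = 2.3e-04). Without H1703 DMSO replicate 3 the log2 value was 5.37, and over all single libraries left out it ran from 3.55 to 5.37. In H1299 ITGA9 had 25, 14 and 19 counts with SAHA, against 5, 2 and 6 counts with DMSO (log2 2.11 ± 0.44, edgeR adjusted p = 0.0024).

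Of the 7 leukocyte integrin genes, ITGAX and ITGAD rose in H1703, and ITGAE and ITGB2 fell there. ITGAX (ENSG00000140678, GRCh38 chromosome 16, 31355134 to 31382997), which encodes CD11c of dendritic cells, had 15.8, 14.3 and 12.3 CPM with SAHA, against 0.765, 0.583 and 0.5495 CPM with DMSO in H1703, 22.3-fold higher (log2 4.48 ± 0.20, edgeR adjusted p = 1.1e-07). In H1299 ITGAX had 43, 31 and 55 counts with SAHA, against 0, 0 and 8 counts with DMSO (log2 3.94 ± 0.77, edgeR adjusted p = 0.0025), all DMSO counts coming from replicate 3. Without that library the log2 value was 8.40, and over all single libraries left out it ran from 3.37 to 8.40. ITGAD, next to it on chromosome 16, rose in H1703, with 3.13, 2.61 and 2.49 CPM with SAHA, against 0.638, 0.583 and 0.687 CPM with DMSO (log2 2.12 ± 0.27, edgeR adjusted p = 8.8e-05), and had 9, 13 and 7 counts with SAHA, against 0, 0 and 1 counts with DMSO in H1299. The macrophage markers CSF1R and CD68 rose in H1703 too, while in H1299 CSF1R rose and CD68 fell, with the values given above. The pan-leukocyte marker PTPRC had few counts in every group. The part of these markers in the ITGAX and ITGAD results was not tested. ITGAE (ENSG00000083457, GRCh38 chromosome 17, 3714628 to 3801243), the E-cadherin-binding subunit of intraepithelial T cells, fell in both lines, with 16.03, 14.2 and 15.4 CPM with SAHA, against 39.6, 42.9 and 45.8 CPM with DMSO in H1703 (log2 -1.47 ± 0.11, edgeR adjusted p = 1.7e-06). In H1299 ITGAE had 7.81, 6.66 and 7.66 CPM with SAHA, against 22.2, 20.4 and 18.5 CPM with DMSO (log2 -1.52 ± 0.13, edgeR adjusted p = 1.0e-05). Groups did not overlap. HASPIN, a mitotic kinase gene that overlaps ITGAE in the authors' positions, fell as well (log2 -2.27 ± 0.13 in H1703 and -1.05 ± 0.13 in H1299), and its part in the ITGAE counts was not tested.

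ITGB2, the beta subunit common to CD11 integrins, fell in H1703, with 10.8, 9.92 and 8.599 CPM with SAHA, against 14.9, 15.2 and 15.9 CPM with DMSO (log2 -0.63 ± 0.13, edgeR adjusted p = 0.002). It had 13, 14 and 20 counts with SAHA, against 6, 8 and 5 counts with DMSO in H1299 (log2 1.28 ± 0.38, edgeR adjusted p = 0.015). The interaction was log2 -1.98 ± 0.32, edgeR adjusted p = 2.6e-04. The H1299 call was lost with DESeq2 (adjusted p = 0.069) and without DMSO replicate 1, DMSO replicate 3 or SAHA replicate 3 (range over all alternatives 8.1e-04 to 0.069). ITGAM fell in H1299, with 1.91, 2.92 and 1.696 CPM with SAHA, against 4.11, 2.78 and 3.56 CPM with DMSO (log2 -0.74 ± 0.27, edgeR adjusted p = 0.036), although the groups overlapped, and the call was lost with DESeq2 (0.064), when the replicate number was blocked (0.064) with total counts as the scaling, and without DMSO replicate 1 or 3 or SAHA replicate 1 or 3 (range over all 0.012 to 0.11). In H1703 it had 3.13, 2.44 and 2.76 CPM with SAHA, against 2.104, 2.91 and 2.34 CPM with DMSO (log2 0.19 ± 0.23, edgeR adjusted p = 0.48). ITGB7 had 1.93, 2.26 and 1.71 CPM with SAHA, against 1.403, 1.34 and 1.44 CPM with DMSO in H1703 (log2 0.51 ± 0.25, edgeR adjusted p = 0.097) and 2, 4 and 4 counts with SAHA, against 0, 2 and 0 counts with DMSO in H1299, too few for the test. ITGAL had at most 20 counts in any library, did not pass in H1703 and was not tested in H1299.

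The remaining beta subunits include the partner of most alphas. ITGB1 (ENSG00000150093, GRCh38 chromosome 10, 32900319 to 33005792), which pairs with at least the alphas for laminin, collagen and fibronectin, was the highest integrin gene by mean CPM in H1703 with SAHA and with DMSO, and in H1299 with SAHA, where ITGA3 was above it in replicates 2 and 3. It had 1708, 1809 and 1439.6 CPM with SAHA, against 1026, 1175 and 1155 CPM with DMSO in H1703 (log2 0.58 ± 0.10, edgeR adjusted p = 4.9e-04). In H1299 ITGB1 had 1024, 836 and 849 CPM with SAHA, against 489, 484 and 583 CPM with DMSO (log2 0.75 ± 0.11, edgeR adjusted p = 3.5e-04), a rise of 1.495-fold and 1.68-fold without overlap. ITGB3 (ENSG00000259207, GRCh38 chromosome 17, 47253846 to 47311816), the vitronectin receptor subunit of platelets and osteoclasts, split the lines. In H1703 it had 125, 122 and 122 CPM with SAHA, against 149, 146 and 167 CPM with DMSO, a small fall (log2 -0.31 ± 0.077, edgeR adjusted p = 0.0056), and in H1299 22.8, 27.1 and 25.02 CPM with SAHA, against 7.49, 8.62 and 8.36 CPM with DMSO, a 2.95-fold rise (log2 1.56 ± 0.12, edgeR adjusted p = 6.9e-06). The interaction was log2 -1.94 ± 0.13, edgeR adjusted p = 7.8e-08. ITGB5 (ENSG00000082781, GRCh38 chromosome 3, 124761948 to 124901418), another partner of alpha V, fell 2.38-fold in H1703, with 176, 174 and 161 CPM with SAHA, against 415, 394 and 423 CPM with DMSO (log2 -1.25 ± 0.072, edgeR adjusted p = 4.2e-07). In H1299 its groups overlapped, with 128, 149.9 and 141 CPM with SAHA, against 154, 141 and 131 CPM with DMSO (log2 -0.081 ± 0.094, edgeR adjusted p = 0.47). The interaction was log2 -1.24 ± 0.12, edgeR adjusted p = 2.2e-06. ITGB8, a partner of alpha V that activates TGF-beta, rose in H1703 at a low level, with 2.93, 4.18 and 5.19 CPM with SAHA, against 0.829, 1.28 and 0.756 CPM with DMSO (log2 2.096 ± 0.31, edgeR adjusted p = 2.3e-04). In H1299 ITGB8 had 2.33, 1.58 and 5.15 CPM with SAHA, against 1.27, 1.06 and 2.03 CPM with DMSO (log2 0.99 ± 0.47, edgeR adjusted p = 0.094), and passed when the replicate number was blocked (edgeR adjusted p = 0.023) and in the fit over 12 libraries (0.041), and also without SAHA replicate 2. Over all alternatives the adjusted p ranged from 0.023 to 0.43. ITGB6, the epithelial partner of alpha V, had 2.99, 1.97 and 2.43 CPM with SAHA, against 2.87, 2.45 and 3.297 CPM with DMSO in H1703 and 0.835, 0.444 and 0.935 CPM with SAHA, against 0.423, 0.413 and 1.13 CPM with DMSO in H1299, and passed in neither line. ITGBL1, a secreted relative of the betas without a transmembrane segment, fell in H1299, with 0.537, 0.634 and 0.409 CPM with SAHA, against 1.63, 1.59 and 2.600 CPM with DMSO (log2 -1.93 ± 0.35, edgeR adjusted p = 9.6e-04), and overlapped in H1703, with 0.266, 0.871 and 0.788 CPM with SAHA, against 1.02, 1.75 and 0.824 CPM with DMSO (log2 -0.87 ± 0.47, edgeR adjusted p = 0.13).

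**Figure D3:**
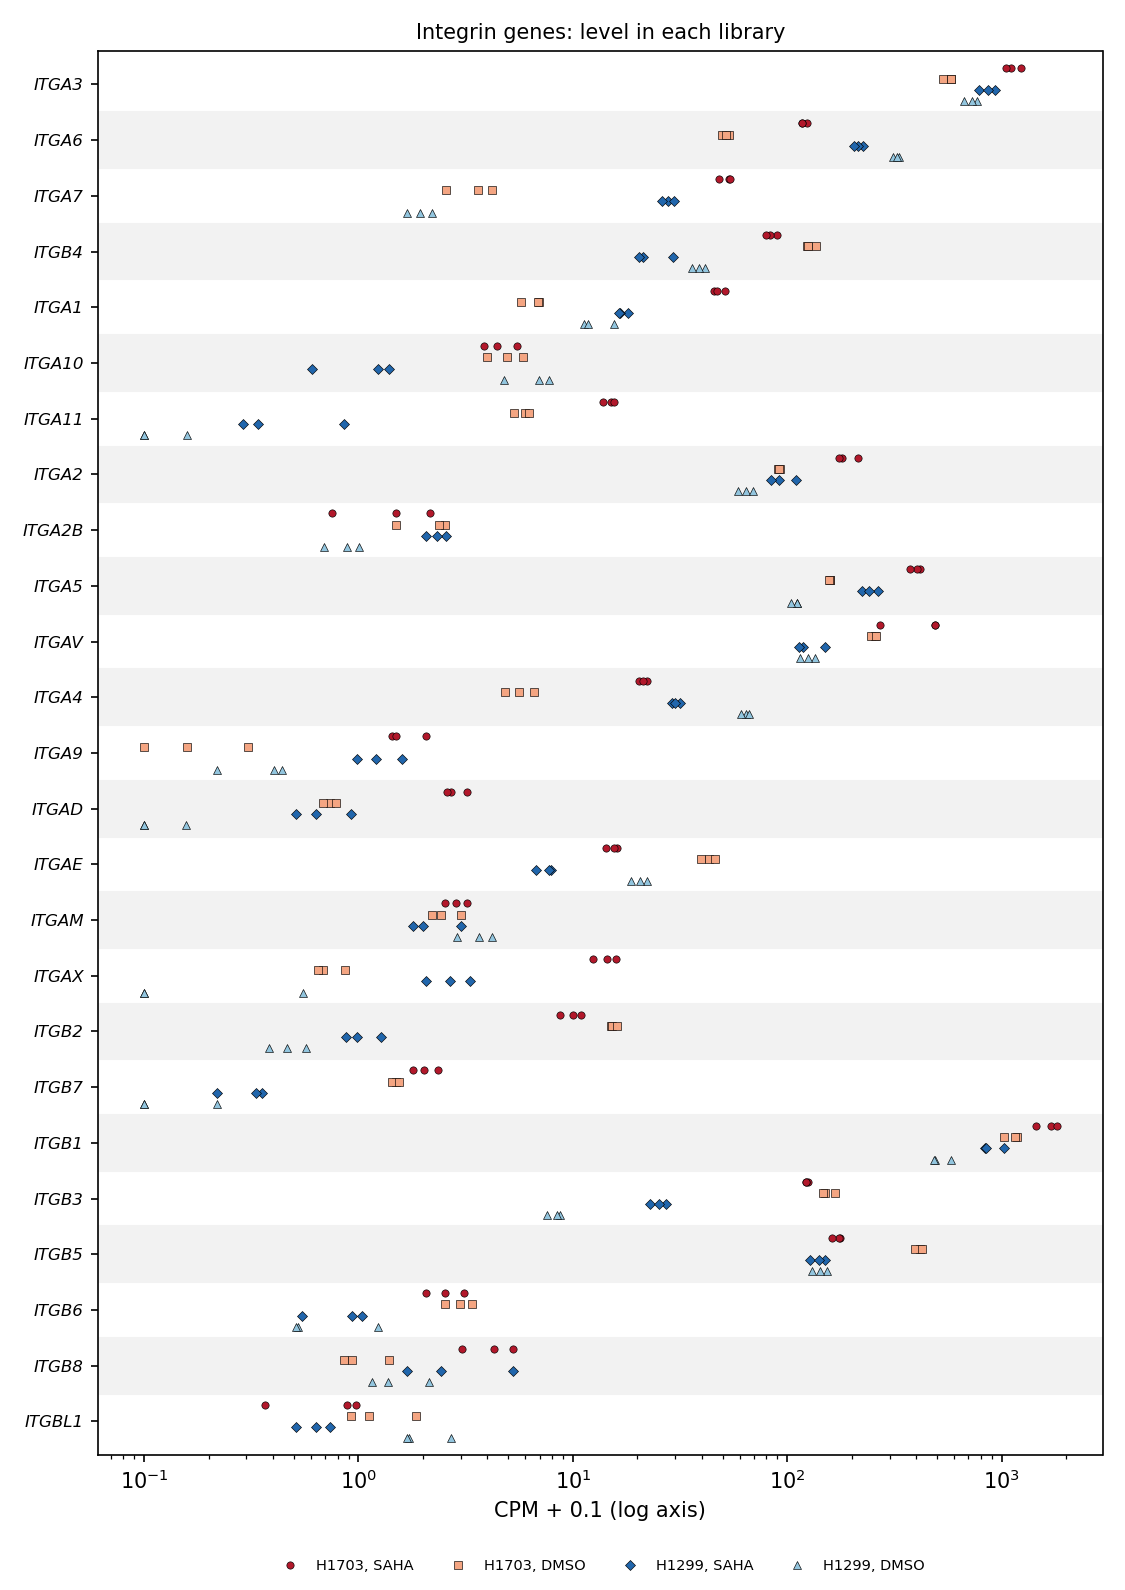
CPM plus 0.1 on a log axis (horizontal) in each library for the 25 integrin-family genes whose highest group mean was 1 CPM or more, ordered by receptor class. Each point is 1 library, 3 per group, in the order H1703 with SAHA, H1703 with DMSO, H1299 with SAHA and H1299 with DMSO from top to bottom within a gene; ITGA7 with SAHA lies right of ITGA7 with DMSO in both lines.

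Per length, the subunits of alpha V receptors changed places in H1703. By the deposited FPKM (mean ± SD, n = 3), ITGAV, ITGB3 and ITGB5 stood at 27.3 ± 8.37, 21.8 ± 0.498 and 16.5 ± 0.882 with SAHA, and at 17.8 ± 0.658, 29.1 ± 2.41 and 42.3 ± 1.89 with DMSO. ITGB5 was the highest of the 3 with DMSO and the lowest with SAHA. In H1299 they stood at 10.3 ± 1.85, 5.44 ± 0.417 and 16.6 ± 1.15 with SAHA, and at 9.94 ± 0.875, 1.76 ± 0.1198 and 16.7 ± 1.33 with DMSO, ITGB5 the highest and ITGB3 the lowest in both groups. Of the laminin-binding alphas, ITGA3, ITGA6 and ITGA7 stood at 60.1 ± 5.25, 9.87 ± 0.428 and 3.51 ± 0.233 FPKM in H1703 with SAHA, and at 31.9 ± 1.72, 4.52 ± 0.201 and 0.241 ± 0.0565 FPKM with DMSO. ITGA7 stayed the lowest of the 3 despite its rise.

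Other members also overlap a gene in the authors' positions. GALK1, over ITGB4, was at log2 -0.37 ± 0.13 in H1703 and 0.33 ± 0.14 in H1299. DLD, over LAMB1, was at log2 0.057 ± 0.090 and -0.39 ± 0.12, and ADRM1, over LAMA5, at log2 0.48 ± 0.092 and 0.24 ± 0.092. FGF14, over ITGBL1, was at log2 2.15 ± 0.58 in H1299, opposite in sign to ITGBL1. Several members lie next to each other on a chromosome, in the authors' GRCh38 positions. ITGA1 and ITGA2 lie 30116 bases apart on chromosome 5, and both rose in H1703. In order of start positions 1 protein-coding gene falls between them, which need not lie in that gap. ITGAM, ITGAX and ITGAD follow each other on chromosome 16, with gaps of 22242 and 10315 bases. In H1703, ITGAX and ITGAD rose and ITGAM did not pass. LAMB1 and LAMB4 lie 20293 bases apart on chromosome 7.

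Under DMSO the lines differed in most members. Of 37 tested, 24 were higher in H1703 than in H1299 and 7 were lower, while 66.5% of all tested genes were called. That background splits into 34.3% higher and 32.2% lower, beside 64.9% and 18.9% of the tested members. By size, 18 were called and at least 2-fold higher and 5 at least 2-fold lower, against 20.9% and 16.5% of all genes. Both the 24 and the 18 include 6 genes with fewer than 10 counts in every H1299 DMSO library. These entered the test through other groups, so the higher counts lend no support. Of the laminins, LAMA3 was higher in H1703 by 24.4-fold (log2 4.61 ± 0.19, edgeR adjusted p = 1.5e-10) and LAMA5 by 6.48-fold (log2 2.70 ± 0.14, edgeR adjusted p = 5.8e-10). So were LAMB1 by 3.99-fold (log2 2.00 ± 0.084, edgeR adjusted p = 6.2e-11) and LAMC1 by 2.65-fold (log2 1.41 ± 0.085, edgeR adjusted p = 3.2e-09). Lower in H1703 were LAMA2 by 20.4-fold (log2 -4.35 ± 0.25, edgeR adjusted p = 1.6e-09), LAMB3 by 4.64-fold (log2 -2.21 ± 0.10, edgeR adjusted p = 1.6e-10) and LAMC3 (log2 -1.65 ± 0.30, edgeR adjusted p = 2.3e-04).

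Among integrins under DMSO, the alpha V partners ITGB3, ITGB5 and ITGB6 were higher in H1703, ITGB3 by 18.9-fold (log2 4.24 ± 0.10, edgeR adjusted p = 2.7e-13), ITGB5 by 2.89-fold (log2 1.53 ± 0.085, edgeR adjusted p = 1.2e-09) and ITGB6 by 4.299-fold (log2 2.104 ± 0.38, edgeR adjusted p = 2.1e-04). ITGB2 was 40.5-fold higher (log2 5.34 ± 0.22, edgeR adjusted p = 5.4e-11), at 15.3 ± 0.532 CPM in H1703 and 0.372 ± 0.0953 CPM in H1299 (mean ± SD, n = 3). ITGAE was 2.103-fold higher (log2 1.07 ± 0.11, edgeR adjusted p = 9.5e-07), and ITGAM did not pass (log2 -0.50 ± 0.25, edgeR adjusted p = 0.091). ITGAD, ITGAL, ITGAX, ITGB7 and ITGA11 were also called higher in H1703. With ITGB2 these make 6 genes that had fewer than 10 counts in every H1299 DMSO library. All 6 entered the test through other groups, so their number lends no support. ITGB7 had 22, 23 and 21 counts in H1703 and 0, 2 and 0 in H1299, a ratio of 35.6 with a counting interval from 9.48 to 300.45 (log2 4.91 ± 0.61, edgeR adjusted p = 6.5e-06). For ITGAD the summed counts were 30 in H1703 and 1 in H1299, a ratio of 32.4 with an interval from 5.39 to 1322, and for ITGAL 47 in H1703 and 3 in H1299, a ratio of 16.9 with an interval from 5.45 to 85. The fitted log2 values of ITGB7, ITGA11, ITGAD and ITGAL each turn on 1 H1299 library. Without H1299 DMSO replicate 2 the value of ITGB7 was 7.51 and that of ITGA11 9.55, against 7.72 ± 0.54 with it. Without H1299 DMSO replicate 3 ITGAD was at 6.38, against 4.56 ± 0.70 with it, and ITGAL at 7.01, against 3.91 ± 0.95. ITGA11 had 92, 105 and 76 counts in H1703 and 0, 1 and 0 in H1299, a ratio of 295 with a counting interval from 52.5 to 11688. Lower in H1703 were ITGA4 by 11.4-fold (log2 -3.51 ± 0.12, edgeR adjusted p = 6.3e-12), ITGA6 by 6.27-fold (log2 -2.65 ± 0.074, edgeR adjusted p = 9.7e-13), ITGA1 (log2 -0.99 ± 0.14, edgeR adjusted p = 2.1e-05) and ITGA3 (log2 -0.35 ± 0.088, edgeR adjusted p = 0.0027). ITGB4 was 3.31-fold higher in H1703 (log2 1.73 ± 0.12, edgeR adjusted p = 1.9e-08), so the alpha 6 and beta 4 subunits of one receptor differed between the lines in opposite directions. ITGAX had 12, 10 and 8 counts in H1703 and 0, 0 and 8 in H1299. Its log2 value was 6.38 without H1299 DMSO replicate 3 and ran from 1.41 to 6.38 over all single libraries left out. The log2 value of ITGB6 was 2.75 without that library. The call of ITGAX under DMSO (log2 1.97 ± 0.73, edgeR adjusted p = 0.03) was lost when either H1299 DMSO replicate 1 or 2 or H1703 DMSO replicate 1 or 2 was left out (range of adjusted p over all alternatives 5.1e-05 to 0.083), and that of LAMA4 (log2 0.69 ± 0.21, edgeR adjusted p = 0.011) with total counts as the scaling (edgeR adjusted p = 0.056; range 0.0086 to 0.056).

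**Figure D4:**
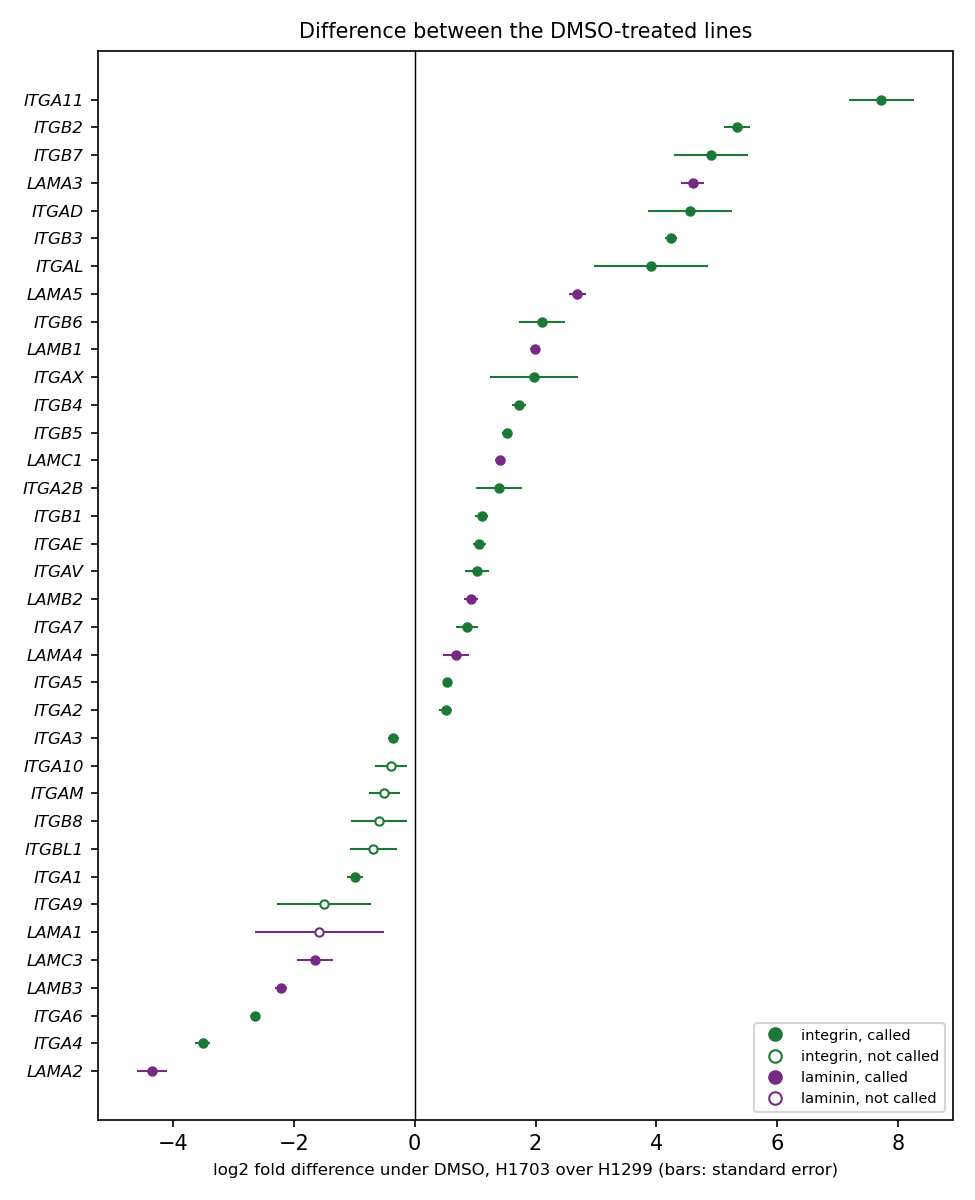
Log2 fold difference between the DMSO groups, H1703 over H1299 (horizontal axis), with its standard error for the tested members described here, 3 libraries per line. Filled points were called; the values run from -4.35 for LAMA2 to 7.72 for ITGA11.

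The SAHA effect itself differed between the lines for 18 of 37 tested members, 11 more positive in H1703 and 7 more negative. Of all tested genes 34.9% were called, 13.7% more positive and 21.2% more negative. DESeq2 called 13 and 5 members. Of the members, 9 were called with a difference of 2-fold or more upward and 7 downward, against 6.09% and 12.7% of all genes. The median difference over the members was 0.21 log2, beside -0.09 over all genes.

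Genes that work with integrins and laminins were counted from lists of known partners. Of 15 basement membrane partners, which form the collagen IV and nidogen network that laminin joins, 7 of 14 tested rose and 3 fell in H1703, and 11 of 12 rose in H1299, the other not passing. In H1703 these are 50% higher and 21.4% lower, and in H1299 91.7% higher, beside the shares of all genes given above (34.7% and 32.6% in H1703, 33.3% and 30.4% in H1299). In H1703 NID2, which links laminin to collagen IV, rose (log2 2.05 ± 0.089), as did COL4A4 (log2 2.57 ± 0.14), and the collagen IV chains COL4A1 (log2 -1.62 ± 0.10) and COL4A2 (log2 -1.09 ± 0.12) fell. In H1299 COL4A4 (log2 3.004 ± 0.23) and AGRN, the heparan sulfate proteoglycan agrin (log2 1.49 ± 0.13), rose. COL4A1 and COL4A2 had 2 and 4 counts in all in H1299 with DMSO. A gene this low with DMSO enters the test only through its SAHA libraries and can only be called higher. The H1299 share therefore lends no support. How many partner genes entered in this way was not counted.

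The median log2 fold change of the tested basement membrane partners was 0.30 in H1703 and 1.35 in H1299, beside 0.02 over all genes. The H1299 medians of lists that hold genes with few counts with DMSO carry the limit given above. The medians of the other lists in H1703 and H1299 were -0.25 and -0.21 for adaptors, 0.17 and 0.096 for signalling partners, and 0.29 and 0.21 for other laminin receptors. They were 0.42 and -0.49 for hemidesmosome partners, and 0.18 and 1.19 for ligands.

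Of 26 integrin activators and adaptors, 25 were tested: 4 rose and 12 fell in H1703, and 8 rose and 9 fell in H1299. The shares were 16% higher and 48% lower in H1703, against 34.7% and 32.6% of all genes. In H1299 they were 32% and 36%, near the 33.3% and 30.4% of all genes. The tensins, which bind beta tails and actin, stood at both ends. TNS3 (log2 -3.02 ± 0.071) and TNS2 (log2 -2.55 ± 0.10) fell in H1703, and in H1299 TNS1 rose (log2 4.44 ± 0.34) while TNS2 (log2 -0.79 ± 0.12) and the ILK partner PARVA (log2 -0.89 ± 0.089) fell. The talin gene TLN2 rose in H1703 (log2 0.85 ± 0.090). Of 18 signalling partners, 8 rose and 6 fell in H1703 and 6 rose and 6 fell in H1299. At 44.4% and 33.3% in H1703 and 33.3% in each direction in H1299, these shares lie near those of all genes, apart from the higher share in H1703. SRC (log2 -2.01 ± 0.10) and caveolin 1, CAV1 (log2 -1.04 ± 0.089), fell and the Src-family kinase gene FYN (log2 1.55 ± 0.14) and the tetraspanin CD9 (log2 0.80 ± 0.067) rose in H1703. In H1299 CAV1 (log2 -1.09 ± 0.079) and DOCK1 (log2 -0.84 ± 0.088) fell, and CD9 (log2 0.74 ± 0.084) and the scaffold NEDD9 (log2 5.38 ± 0.59) rose. NEDD9 rose 41.6-fold, to 3.68 ± 0.208 CPM with SAHA, and was thus far below 1 CPM with DMSO. It entered the H1299 test through its SAHA libraries, so its call, counted above, lends no support.

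Of 8 other laminin receptors, 4 rose and 2 fell in H1703 and 3 rose and 2 fell in H1299, shares of 50% and 25% in H1703 and of 37.5% and 25% in H1299. BCAM, the Lutheran receptor for laminin alpha 5, rose in H1703 (log2 2.19 ± 0.11) and H1299 (log2 2.98 ± 0.10). SDC4, syndecan 4, rose in H1703 (log2 2.58 ± 0.083), and MCAM, a receptor for laminin alpha 4, rose in H1299 (log2 5.04 ± 0.12). RPSA, a ribosomal protein also described as a laminin receptor, fell in H1703 (log2 -0.65 ± 0.078) and H1299 (log2 -0.49 ± 0.11), and the sarcoglycans SGCE in H1703 (log2 -0.51 ± 0.13) and SGCB in H1299 (log2 -0.38 ± 0.13) fell. Of 5 hemidesmosome partners, which anchor alpha 6 beta 4 to keratins, 3 rose and 1 fell in H1703 and 1 rose and 3 fell in H1299. On only 5 genes, these are 60% higher and 20% lower in H1703 and 20% and 60% in H1299. Of all tested genes, 34.7% were higher and 32.6% lower in H1703, and 33.3% and 30.4% in H1299. CD151 rose in H1703 (log2 0.54 ± 0.080) and H1299 (log2 0.53 ± 0.14), plectin, PLEC, rose in H1703 (log2 0.42 ± 0.088), and dystonin, DST, fell in H1703 (log2 -0.36 ± 0.11) and H1299 (log2 -0.94 ± 0.20). The collagen XVII gene COL17A1 fell in H1299 (log2 -1.27 ± 0.14).

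Of 28 non-laminin ligands, 25 were tested in H1703, with 12 up and 9 down, and 19 in H1299, with 12 up and 1 down. The shares were 48% higher and 36% lower in H1703, against 34.7% and 32.6% of all genes, the lower share near that of all genes. In H1299 they were 63.2% and 5.26%, against 33.3% and 30.4%, with the same limit on genes that have few counts with DMSO. CTGF, a matricellular ligand of several integrins, rose in H1703 (log2 4.89 ± 0.088) and H1299 (log2 3.64 ± 0.089). ICAM1, the ligand of beta 2 integrins, rose in H1703 (log2 2.24 ± 0.10), where VCAM1, the ligand of alpha 4 and alpha 9, fell (log2 -3.12 ± 0.11) and so did CDH1, the ligand of alpha E (log2 -1.51 ± 0.14). In H1299 thrombospondin 1, THBS1, rose (log2 2.28 ± 0.11) and osteopontin, SPP1, fell (log2 -0.72 ± 0.18). In H1703 ITGAE and its ligand CDH1 thus both fell, while ITGA4 rose and its ligand VCAM1 fell. The summed level of 7 fibroblast markers was 113.55 to 127 CPM in H1703 with SAHA and 63.2 to 72.9 CPM with DMSO. It was 38.2 to 51.035 CPM in H1299 with SAHA and 1.54 to 2.71 CPM with DMSO. COL1A1 made up most of it in H1299 with SAHA, at 38.2 ± 6.85 CPM, and FAP had 0 counts in H1703 with SAHA and in H1299 with DMSO, where LUM did too. The part of these markers in the results was not tested.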

How the data were processed

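Raw counts and FPKM were deposited by the authors in 1 table per line, per the file headers, with 58302 genes in each. The deposited FPKM equal the count over the column total and 1 gene length, to within 1% in 100.0% of 12156 genes checked. Per the submitters' processing notes, which give no roles, GRCh38, the aligner HISAT2 2.1.0 and StringTie 1.3.3b were used, besides edgeR 3.30.3, fastp and FastQC 0.11.9. Which tool counted reads is not given. The labels name a directional kit in one place and an un-stranded library in another, so reads of genes that overlap, such as ITGAE and HASPIN, cannot be told apart by strand. Columns marked NC were taken as DMSO, the only other group of each line.

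The test on counts was edgeR's quasi-likelihood test (version 4.0.16, R 4.3.3; robust fits). Genes passed filterByExpr at a minimum count of 10 and a minimum total of 15, scaling was by TMM, and p-values had Benjamini-Hochberg adjustment over all genes. Each line was fitted alone for SAHA. The difference under DMSO and the interaction came from 1 fit over 12 libraries. SE is the log2 fold change over the root of F. CPM levels use TMM over 12 libraries, so ratios of CPM differ slightly from fitted folds. Counting intervals are exact conditional binomial and cover counting error only. The labels list the replicate number under a batch tag, so it was taken to pair libraries and used as a blocking term in an alternative, although same-numbered SAHA and DMSO libraries correlated only from -0.05 to 0.03 in their deviations from group means. Counts of replicates differed by more than sampling noise in every pair, at a chi-square of 9.96 to 22.3 for each degree of freedom. Other alternatives were DESeq2 1.42.0, RLE or total-count scaling, no filter, and leaving out each library. The tests were checked on simulated data. The members and lists were chosen with earlier results of these data known. Results of 1 member and 1 partner gene, which stay in the fits and counts, are not reported here. The other members are all accounted for, those called in any comparison with a highest group mean of 1 CPM or more with their values in the libraries. Of each partner list, the text names up to 2 called genes per direction and line with the smallest adjusted p, among genes whose highest group mean is 5 CPM or more. CCN1 and CCN2 appear in the tables as CYR61 and CTGF.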

Additional observations from a re-analysis of the deposited data

Results flagged for a closer look

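The effect of SAHA differed between the lines, by the interaction in edgeR (adjusted p below 0.05 over all genes, 3 libraries per group), for 18 members. Values of those described here are log2, H1703 minus H1299. More positive in H1703 were LAMA1 (7.31 ± 1.27), ITGA4 (3.01 ± 0.16), ITGA10 (2.58 ± 0.41), ITGA1 (2.49 ± 0.19), LAMC3 (1.96 ± 0.42), ITGA6 (1.80 ± 0.10), LAMA2 (1.71 ± 0.32), LAMB3 (1.66 ± 0.14), ITGA3 (0.74 ± 0.12) and ITGA2 (0.48 ± 0.15). More negative in H1703 were ITGA11 (-2.55 ± 0.93), ITGAD (-2.35 ± 0.86), ITGA2B (-2.09 ± 0.52), ITGB2 (-1.98 ± 0.32), ITGB3 (-1.94 ± 0.13), ITGB5 (-1.24 ± 0.12) and LAMA3 (-1.21 ± 0.24). ITGA11 and ITGAD had 1 count each in H1299 with DMSO, and LAMA1 had 1 in H1703 and 4 in H1299 with DMSO, so their values depend on the prior count of the fit. With single libraries left out, the value of LAMA1 ran from 6.08 to 9.22, that of ITGA11 from -4.38 to -1.68 and that of ITGAD from -4.17 to -1.91.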

How the results depend on the processing

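No count of calls, over all genes or over members, moved by more than 1.5 times under any alternative run. The farthest was 21 members called higher in H1299, against 14, in 1 fit over 12 libraries, which tested 37. In H1703 the members called higher ran from 19 to 21 and lower from 6 to 7 with 1 library left out, and in H1299 from 13 to 16 and from 9 to 10. Of the called members, 25 of 28 in H1703, 21 of 24 in H1299, 28 of 31 for the lines under DMSO and 14 of 18 for the interaction kept direction and call under every alternative, and none of the called members changed sign. The sign changed only for members that had not passed. In H1703 this was ITGA10 (-0.24 to 0.053 over libraries left out) and LAMA5 (-0.035 with total counts, -0.035 to 0.16 over libraries left out). In H1299 it was ITGAV (0.057 with total counts, 0.038 in 1 fit over 12 libraries, -0.15 to 0.048 over libraries left out), LAMA2 (0.040, 0.022 and -0.13 to 0.085) and ITGB6 (-0.15 to 0.74). For the interaction it was ITGA7 (-0.067 with total counts, -0.14 to 0.20 over libraries left out), ITGAE (0.036 with DESeq2, 0.037 with RLE, -0.10 to 0.036) and ITGAX (-3.93 to 1.03). ITGAX turned to -3.93 (edgeR adjusted p = 0.028, range 0.028 to 1.0000) without H1299 DMSO replicate 3, the one DMSO library of that line with ITGAX counts. The interaction calls of ITGA11 (adjusted p range 0.023 to 0.22) and ITGAD (0.022 to 0.15) were lost in most alternatives, that of ITGAD also with replicate number as a blocking term (0.101). With replicate number as a blocking term, 21 members rose and 7 fell in H1703 and 16 and 9 in H1299. Besides ITGAM, ITGA1 and ITGB8 in H1299 and ITGAD, it changed no call. Total counts as the scaling moved the median of all genes under DMSO to -0.17 from 0.0021, and the interaction's to -0.19 from -0.09. That of H1703 moved to -0.087 from 0.018, and that of H1299 to 0.086 from 0.016. With more genes tested, the H1299 median was 0.17 with no filter on low counts and 0.12 in 1 fit over 12 libraries, and the H1703 median 0.13 with no filter. Members below about 1 CPM are limited by depth, and for these a missing call does not show that SAHA left the level alone.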
